A study of Mus musculus with 6 samples.

Results

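The genes described are those that mark the vessels of the eye, 29 endothelial genes and 5 mural genes of pericytes and smooth muscle, 34 in all, in RNA of whole mouse eyeballs. A gene was taken up where the array annotation named it alone for at least 1 probe set, and its brightest probe set, by the mean of the 6 arrays, stood for it. This left 33 genes, 28 endothelial and 5 mural, among 12393 genes so represented. Ly6c1 is the member without a value, since its probe set also names another gene. Eyeballs came from newborn pups at postnatal day 1 on a mixed background, 3 labelled wild type and 3 labelled Brg1 cKO, with 1 array for each eyeball. Brg1 cKO pups were homozygous for floxed Brg1 (Smarca4, an ATPase of SWI/SNF chromatin remodeling complexes) and carried the Le-Cre transgene. Le-Cre is active in head surface ectoderm, the source of the lens, the cornea epithelium and the eyelids, and not by design in vessels. The wild-type pups are described as stage-matched littermates, and floxed pups without Cre served as controls elsewhere in the study, which does not say so for these arrays. No pup with Le-Cre alone was profiled, and the study describes deletion as incomplete in many embryos, an occasional germline deletion and a variable severity of the eye defects.

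At birth the mouse eye holds several vascular beds. The hyaloid vessels, a transient network in the vitreous, still surround the lens, the choroid lies behind the retinal pigment epithelium, and the retinal plexus has only begun to spread from the optic nerve head. Endothelial cells line these vessels, sense vascular endothelial growth factor (VEGF) through receptor tyrosine kinases and are held together by VE-cadherin. They secrete PDGF-B, which recruits mural cells that carry its receptor. Endothelial identity depends on ETS factors such as Erg and Fli1 and on SoxF factors such as Sox17 and Sox18. All values below are log2 of the normalized intensity, differences are Brg1 cKO minus wild type, and a difference was called where the limma adjusted p, over all probe sets, lay under 0.05. In RNA of whole eyeballs, more vascular cells and more RNA per vascular cell cannot be told apart.

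The median intensity of the arrays lay between 169.1 and 185.5, and values near log2 4.84, the 25th percentile of all values, were taken as dim. Xist was at 12.30 to 12.92 in 5 arrays and at 4.88 in replicate 1 of Brg1 cKO, the level of a male, so that sex was not balanced. A shift is the median difference of a list from wild type in an array. Brg1 cKO replicate 2 and wild-type replicate 3 had the highest shifts of their genotype in vascular and skeletal muscle genes, as described below. In skeletal muscle genes Brg1 cKO replicate 1, at -0.59, stood apart from replicates 2 and 3, at 0.64 and 0.42. Lens markers had lower values in all Brg1 cKO arrays, with shifts of -2.59, -0.68 and -3.33 in replicates 1 to 3. Their median was -2.27, with 0 of 10 markers past the threshold. For actin, the 3' control probe set exceeded the 5' one by 0.93 to 1.12 on the log2 scale in wild type and by 0.98 to 1.34 in Brg1 cKO, most in replicate 2. For Gapdh the excess was 1.05 in Brg1 cKO replicate 2 and 0.73 to 0.87 in the other arrays. Brg1 cKO replicate 2 also had the lowest limma array weight, 0.465, against 0.824 to 1.51 for the others. None of the 33 vascular genes had all 6 values below log2 4.84.

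No vascular gene differed between the genotypes past the threshold, but most endothelial genes had somewhat higher means in Brg1 cKO eyeballs. Of 33 genes, 0 passed an adjusted p of 0.05 in limma, where 0.694% of all genes did (0.428% higher and 0.266% lower) and 0.508% of all probe sets (0.305% higher and 0.203% lower), and the lowest adjusted p among the 33 was 0.44. At an unadjusted p under 0.05 there were 3 genes, Nos3, Esm1 and Aplnr, all with higher means in Brg1 cKO. These are 9.09% of the 33, against 9.3% of all genes in either direction, 5.56% with a higher mean and 3.74% with a lower one. Values of the genotypes did not overlap for 4 genes, or 12.1%, against 14.8% of all genes. Nos3, Esm1 and Flt4 were the 3 with higher values (8.46% of all genes) and Lyve1 the one with lower values (6.38% of all genes). By both counts the vascular genes lay near the background. Template matching with a 1.5-fold minimum, rerun here, gave 0 vascular genes, against 4.37% of all genes and 3.62% of all probe sets. The study reports a larger selection by its template matching than this rerun gave. Whether the selection of the study held vascular genes was not tested.

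The direction was less even than these counts. Of 28 endothelial genes, 24 had a higher mean in Brg1 cKO (85.7%), against 52.9% of all genes. Their median difference was 0.50, or 1.42-fold, while the median of all genes was 0.02. A mean higher by more than 1.5-fold was found for 12 of the 28, or 42.9%, against 6.83% of all genes. Of 5 mural genes, 3 had a higher mean, and the median of the 5 was 0.02. That median is the value of Rgs5, which is also among the 3, and the 4 probe sets of Rgs5 spread from -0.85 to 0.02. Cspg4, also among the 3, differed by -0.01 in its dimmer probe set. Without Brg1 cKO replicate 1 the mural count was 5 with a median of 0.50, and without replicate 2 it was 1 with a median of -0.35. These values carry no test. The 12 endothelial genes over 1.5-fold became 3 without Brg1 cKO replicate 2, 6 without wild-type replicate 2 and 7 without both Brg1 cKO replicate 2 and wild-type replicate 3, and the median was then 0.25, 0.35 and 0.39. They were 17 without Brg1 cKO replicate 1, 15 without wild-type replicate 3 and 14 without Brg1 cKO replicate 3, with a median of 0.69, 0.62 and 0.54. They numbered 6 with array weights and 6 with an offset of 16 before log2. The vascular genes were also more variable than most. The median SD over 3 arrays was 0.38 in wild type and 0.59 in Brg1 cKO for endothelial genes, against 0.21 and 0.29 for all genes.

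**Figure D1:**
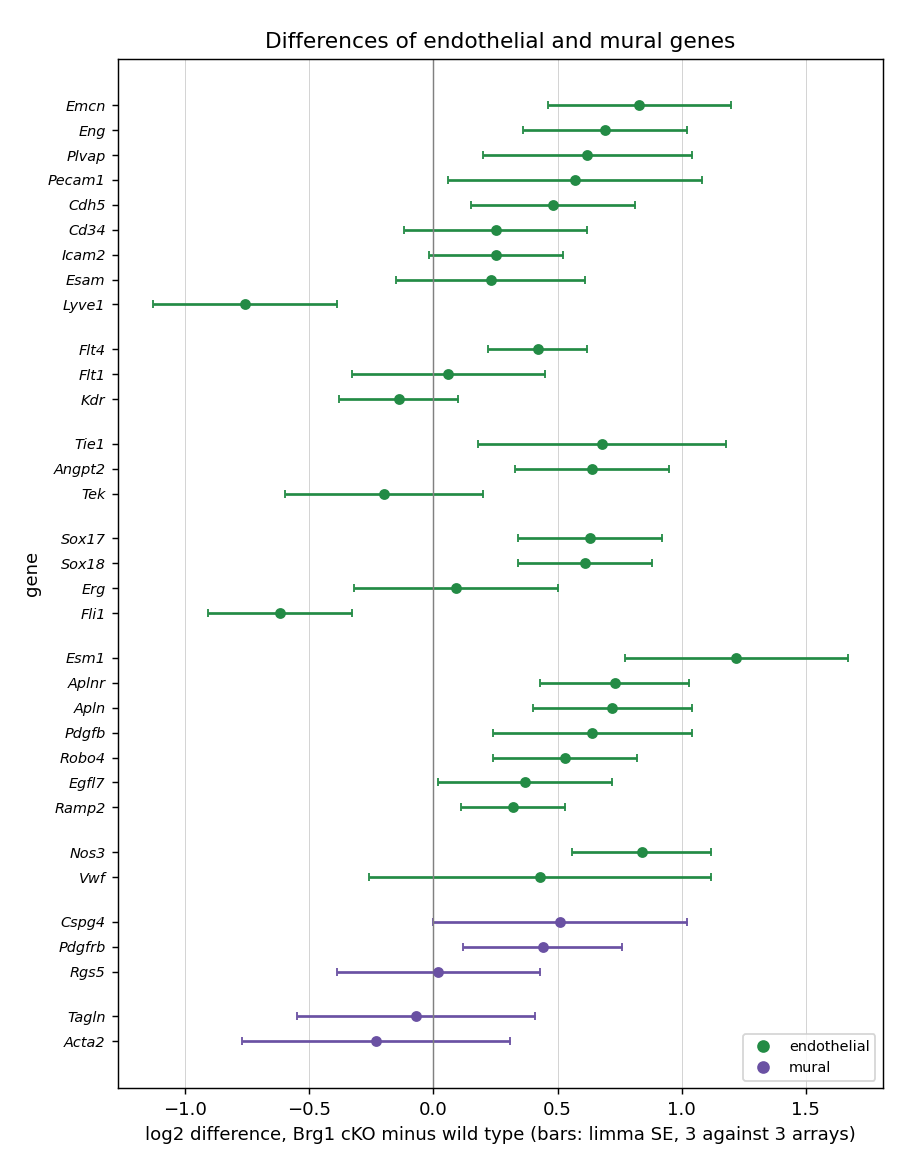
Log2 difference (Brg1 cKO minus wild type, horizontal axis) of each of the 33 vascular genes (vertical axis, grouped by role), with points for the limma estimate, bars for its SE and 3 arrays in each genotype. Endothelial genes (green) reach from -0.76 for Lyve1 to 1.22 for Esm1, mural genes (purple) from -0.23 to 0.51, and 24 of 28 endothelial points lie above 0.

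The promoters of the members with the largest positive differences are shown to let the sequence stand beside the values. They are those of Esm1, Emcn, Apln, Eng and Tie1, the 5 genes highest by difference among members with a single window in the RefSeq promoter table (GRCm38.p6). Each window holds 250 bases before and 50 bases after the start of the gene, 5' to 3' on the strand of the gene. Capitals mark AGGAAG or its reverse complement CTTCCT, a sequence that ETS factors can bind. Esm1 is at chr13:113209409-113209708 on the plus strand, Emcn at chr3:137340828-137341127 on the plus strand, Apln at chrX:48034804-48035103 on the minus strand, Eng at chr2:32646345-32646644 on the plus strand and Tie1 at chr4:118489800-118490099 on the minus strand.
Esm1: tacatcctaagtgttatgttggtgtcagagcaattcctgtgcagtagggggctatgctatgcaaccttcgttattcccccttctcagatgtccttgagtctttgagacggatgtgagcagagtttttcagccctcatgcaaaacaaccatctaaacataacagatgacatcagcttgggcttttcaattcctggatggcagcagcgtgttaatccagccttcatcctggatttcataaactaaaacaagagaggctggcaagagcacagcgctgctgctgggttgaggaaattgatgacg
Emcn: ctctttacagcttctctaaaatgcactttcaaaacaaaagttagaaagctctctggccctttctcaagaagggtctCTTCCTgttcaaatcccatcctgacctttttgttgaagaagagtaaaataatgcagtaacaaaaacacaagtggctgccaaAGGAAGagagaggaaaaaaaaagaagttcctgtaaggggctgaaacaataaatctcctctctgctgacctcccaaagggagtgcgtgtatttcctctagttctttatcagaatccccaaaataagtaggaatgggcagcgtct
Apln: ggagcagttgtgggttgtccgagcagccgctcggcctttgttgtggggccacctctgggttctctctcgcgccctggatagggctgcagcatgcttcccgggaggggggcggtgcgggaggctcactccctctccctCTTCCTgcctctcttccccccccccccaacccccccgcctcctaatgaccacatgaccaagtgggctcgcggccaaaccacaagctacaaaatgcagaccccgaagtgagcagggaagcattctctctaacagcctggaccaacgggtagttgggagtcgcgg
Eng: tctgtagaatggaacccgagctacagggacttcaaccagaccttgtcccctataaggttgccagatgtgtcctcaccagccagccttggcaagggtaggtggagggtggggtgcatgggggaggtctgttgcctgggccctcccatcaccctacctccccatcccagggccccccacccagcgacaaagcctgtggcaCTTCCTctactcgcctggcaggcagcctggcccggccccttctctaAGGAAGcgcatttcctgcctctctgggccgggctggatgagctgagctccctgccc
Tie1: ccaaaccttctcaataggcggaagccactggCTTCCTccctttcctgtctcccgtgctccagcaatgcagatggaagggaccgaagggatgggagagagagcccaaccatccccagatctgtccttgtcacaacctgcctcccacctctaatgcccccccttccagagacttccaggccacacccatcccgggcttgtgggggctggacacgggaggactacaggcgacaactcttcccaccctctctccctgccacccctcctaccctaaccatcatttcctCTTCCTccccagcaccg
Emcn, Eng and Tie1 have 2 matches each, Apln has 1, and Esm1 has 0. Over all endothelial members found in the table, 10 of 17 windows of 13 genes hold a match on either strand, or 58.8%, against 35.4% of all 32851 windows. Windows of the same gene are not independent, and the share is a description. None of 3 windows of mural members holds one. A match does not show that a factor binds there, and no binding was measured.

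Among the genes of endothelial junctions and surface glycoproteins, 8 of 9 had higher means in Brg1 cKO, and none passed. Emcn, which encodes the sialomucin endomucin of veins and capillaries, read 8.38, 8.40 and 9.04 in wild type, compared with 8.64, 9.86 and 9.79 in Brg1 cKO, each in the order of replicates 1 to 3, as below. Brg1 cKO replicates 2 and 3 lay above all wild-type values, while replicate 1 lay within them. The difference was 0.83 (SE 0.37, limma adjusted p = 0.62). Eng encodes endoglin, a co-receptor for TGF-beta family ligands, and read 7.65, 7.35 and 8.31 in wild type, compared with 8.23, 9.02 and 8.14 in Brg1 cKO (difference 0.69, SE 0.33), so that the genotypes overlapped through wild-type replicate 3. Its other probe set differed by 0.77.

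Pecam1, the adhesion molecule of endothelial junctions that platelets and leukocytes also carry, ranged from 5.78 to 6.85 in wild type and from 5.72 to 7.69 in Brg1 cKO. The lowest and the highest of all 6 values were thus both in Brg1 cKO eyeballs, in replicates 1 and 2. Cdh5, which encodes VE-cadherin, read 5.94, 5.90 and 6.59 in wild type, compared with 5.99, 7.01 and 6.87 in Brg1 cKO (difference 0.48, SE 0.33), with replicate 1 of Brg1 cKO among the wild-type values. Its dim second probe set differed by 0.05. Differences were 0.62 for Plvap, which forms the diaphragms of fenestrated capillaries, 0.25 for Cd34 and Icam2, and 0.23 for Esam, each with overlap between the genotypes.

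Lyve1 was the surface gene with the opposite sign. It encodes a hyaluronan receptor of lymphatic endothelium and of some tissue macrophages, including those along hyaloid vessels. It read 7.34, 7.44 and 7.39 in wild type, compared with 5.71, 7.12 and 7.05 in Brg1 cKO, so that all Brg1 cKO values lay below all wild-type values. The gap between the genotypes was 0.22, and most of the mean difference came from replicate 1. The difference was -0.76 (SE 0.37, limma adjusted p = 0.668, exact two-sided permutation p = 0.1, the smallest that 3 arrays against 3 allow). Its other probe set gave -0.81, also without overlap. Without Brg1 cKO replicate 1 the difference was -0.30.

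The VEGF receptors showed no common direction. Flt4, VEGF receptor 3 of lymphatic and sprouting endothelium, read 7.56, 7.14 and 7.52 in wild type, compared with 7.60, 7.99 and 7.88 in Brg1 cKO. The groups did not overlap, by a gap of 0.04, and the difference was 0.42 (SE 0.20, limma adjusted p = 0.661). The dimmer probe set of Flt4 overlapped and differed by 0.20. Kdr, VEGF receptor 2 and the main signaling receptor, read 10.74, 10.46 and 10.65 against 10.53, 10.05 and 10.87 (difference -0.14, SE 0.24). Unlike most members it was lowest in Brg1 cKO replicate 2. Kdr is also expressed by retinal progenitor cells, and retinal markers (0 of 10 past the threshold) had shifts of 0.46, -0.28 and 0.22 in Brg1 cKO, lowest in the same array. Their part in the value of Kdr was not tested. Flt1, VEGF receptor 1, differed by 0.06 (SE 0.39), and its other probe sets by 0.42 and -0.11.

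Of the Tie receptors, Tie1 had a higher mean and Tek, the angiopoietin receptor Tie2, did not. Tie1 read 7.40, 6.73 and 8.09 in wild type, compared with 7.42, 9.11 and 7.76 in Brg1 cKO (difference 0.68, SE 0.50). Tek read 9.40, 9.31 and 9.78 against 8.34, 9.88 and 9.69 (difference -0.20, SE 0.40), and without Brg1 cKO replicate 1 its difference was 0.29. Angpt2, the ligand that destabilizes vessels and that sprouting endothelium makes, read 5.57, 5.47 and 6.55 against 6.56, 6.68 and 6.28 (difference 0.64, SE 0.31). Here Brg1 cKO arrays lay close together, and wild-type replicate 3 reached into their range.

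The endothelial transcription factors were split. The SoxF genes had higher means, Sox17 with 6.17, 5.55 and 5.40 against 6.04, 6.81 and 6.16 (difference 0.63, SE 0.29) and Sox18 with 6.19, 5.89 and 6.16 against 6.11, 6.94 and 7.02 (difference 0.61, SE 0.27, limma adjusted p = 0.626). Fli1, an ETS factor of endothelium and blood cells, read 7.45, 7.77 and 7.71 in wild type, compared with 6.48, 6.99 and 7.60 in Brg1 cKO, a difference of -0.62 (SE 0.29, limma adjusted p = 0.66). The lower Brg1 cKO values were those of replicates 1 and 2, and replicate 3 lay within the wild-type range. Erg, its close relative, differed by 0.09 (SE 0.41) at levels of 4.46 to 5.77, near the low end of the scale.

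All 7 genes of sprouting and guidance signals had higher means. Esm1, which encodes a proteoglycan secreted by endothelial tip cells, read 4.59, 4.48 and 4.64 in wild type, compared with 4.75, 6.72 and 5.90 in Brg1 cKO. The wild-type values were tightly grouped below log2 4.84, replicate 1 of Brg1 cKO lay only 0.11 above them, and replicates 2 and 3 stood well clear. The mean was 2.33-fold higher (difference 1.22, SE 0.45, limma unadjusted p = 0.0293, adjusted p = 0.517, exact permutation p = 0.1). Since wild-type values were at the low end of the scale, the fold is uncertain. Without Brg1 cKO replicate 1 the difference was 1.74, and without replicate 2 it was 0.76.

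Aplnr encodes the receptor for apelin on veins and sprouting endothelium and is also called APJ. It read 10.93, 10.30 and 10.18 in wild type, compared with 10.82, 11.69 and 11.08 in Brg1 cKO, with overlap by wild-type replicate 1 alone. The difference was 0.73 (SE 0.30, limma unadjusted p = 0.0426, adjusted p = 0.573), and its other probe set gave 0.54 with an unadjusted p of 0.24. Apln, the ligand apelin, which tip cells make, read 5.17, 5.45 and 6.34 against 6.29, 6.68 and 6.15 (difference 0.72, SE 0.32, limma adjusted p = 0.624). Ligand and receptor thus had means higher by a like amount, and neither passed.

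Pdgfb, the ligand that draws pericytes to vessels, read 5.73, 5.45 and 6.27 in wild type, compared with 5.68, 7.18 and 6.52 in Brg1 cKO (difference 0.64, SE 0.40), and its dimmer probe set differed by 0.11. Robo4, a guidance receptor that stabilizes vessels, differed by 0.53 and Ramp2, a partner of the adrenomedullin receptor, by 0.32. Egfl7, an endothelial matrix protein, was measured by 4 probe sets that differed by 0.37 to 0.75. The brightest of them, which stands for the gene, overlapped, and the other 3 did not. The one with the difference of 0.75 read 7.42, 6.95 and 7.10 in wild type, compared with 7.94, 8.18 and 7.61 in Brg1 cKO. Its limma unadjusted p was 0.0103 and its adjusted p 0.349.

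Nos3, the endothelial nitric oxide synthase, had the lowest p among the probe sets that stand for the 33 genes, though a dimmer probe set of Egfl7 had a lower one. It read 5.20, 4.80 and 4.57 in wild type, compared with 5.44, 6.22 and 5.45 in Brg1 cKO, so that all Brg1 cKO values lay above all wild-type values, by at least 0.24. The difference was 0.84, or 1.79-fold (SE 0.28, limma unadjusted p = 0.0182, adjusted p = 0.44, exact permutation p = 0.1). Over the alternatives run its difference stayed between 0.44 and 1.01, with adjusted p from 0.315 to 0.889. Vwf, the clotting factor that endothelium and platelets store, had the widest SE of the 33 genes, at 7.22, 6.20 and 8.28 in wild type, compared with 6.88, 9.02 and 7.09 in Brg1 cKO (difference 0.43, SE 0.69).

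**Figure D2:**
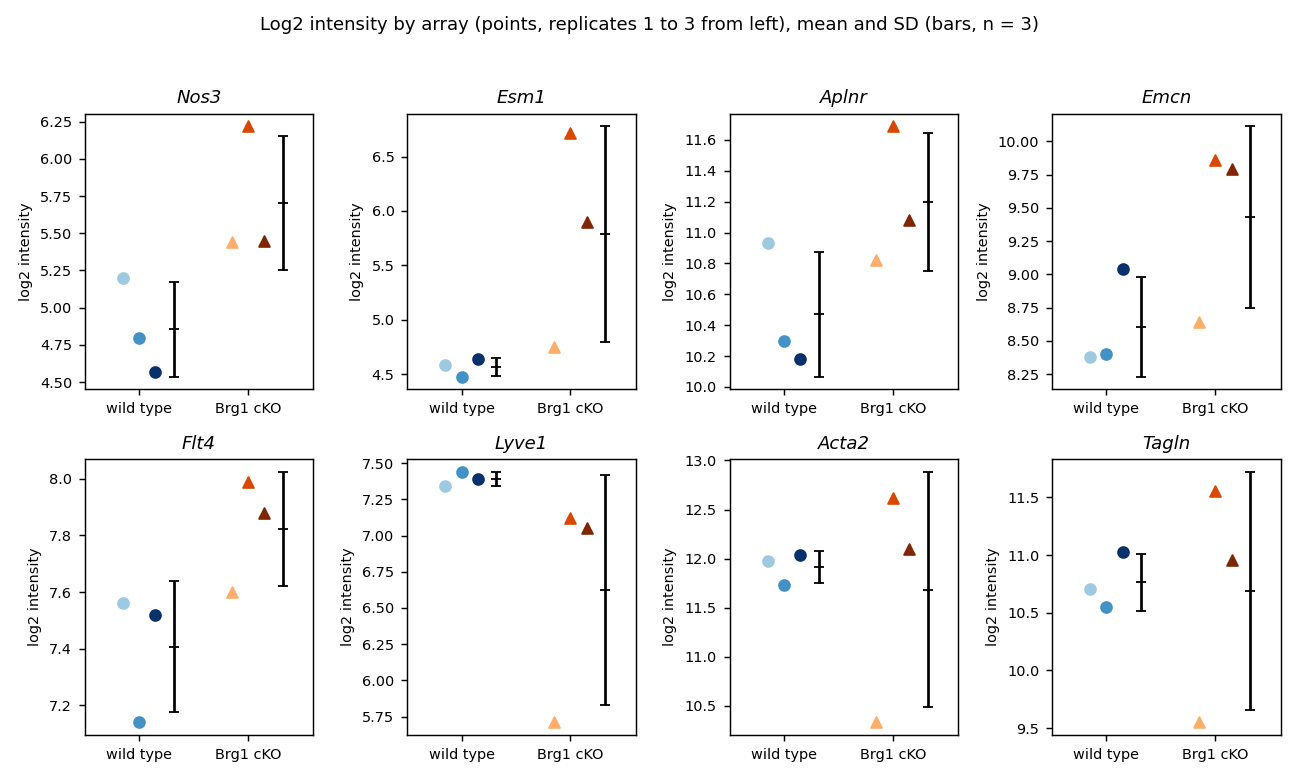
Log2 intensity (vertical axis, with its own range in each panel) of 8 vascular genes in wild-type (circles) and Brg1 cKO (triangles) arrays, replicates 1 to 3 from left to right, with mean and SD of 3 arrays as bars. Genotypes do not overlap for Nos3, Esm1, Flt4 and Lyve1, and Acta2 and Tagln of Brg1 cKO replicate 1 lie at 10.33 and 9.55, below all other arrays.

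The mural genes showed no shared difference between the genotypes. Pdgfrb, the PDGF-B receptor of pericytes and fibroblasts, read 9.21, 8.37 and 9.18 in wild type, compared with 8.83, 9.76 and 9.49 in Brg1 cKO (difference 0.44, SE 0.32), and its other probe set gave 0.47. Cspg4, the pericyte proteoglycan NG2, read 6.44, 6.56 and 7.34 against 6.58, 8.46 and 6.82 (difference 0.51, SE 0.51). The dimmer probe set of Cspg4 differed by -0.01 and was highest in wild-type replicate 3. Rgs5, a regulator of G protein signaling enriched in pericytes, read 9.74, 10.73 and 10.89 in wild type, with Brg1 cKO replicates 2 and 3 at 11.22 and 10.21 and replicate 1 between wild-type replicates 1 and 2 (difference 0.02, SE 0.41). Its 4 probe sets spread from -0.85 to 0.02, all with overlap, so that the probe sets disagree on its order among arrays.

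Acta2 and Tagln, the contractile and actin-binding genes of smooth muscle that myofibroblasts and immature skeletal muscle also express, followed each other array by array. Acta2 read 11.98, 11.73 and 12.04 in wild type, compared with 10.33, 12.62 and 12.10 in Brg1 cKO. Tagln read 10.71, 10.55 and 11.03 against 9.55, 11.56 and 10.96. In both, replicate 1 was the lowest and replicate 2 the highest of all 6 arrays, and wild-type values lay close together. The differences were -0.23 (SE 0.54) and -0.07 (SE 0.48), and without Brg1 cKO replicate 1 they were 0.44 and 0.50. The SD in Brg1 cKO was 1.20 and 1.03, against 0.16 and 0.24 in wild type.

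Vascular genes differed between arrays of the same genotype, largely together, by as much as or more than between genotypes. The shift of an array is the median, over the genes of a list, of the difference from the wild-type mean, where each wild-type array was set against the other pair. In replicates 1 to 3 of wild type it was -0.14, -0.31 and 0.61 for endothelial genes, and in replicates 1 to 3 of Brg1 cKO it was 0.02, 0.92 and 0.39. Set against the mean of all 3 wild-type arrays, as the Brg1 cKO arrays were, the wild-type values were -0.09, -0.21 and 0.40. On this common reference wild-type replicate 3 lay level with Brg1 cKO replicate 3, and replicate 1 of Brg1 cKO lay near the wild-type mean. For mural genes the shift was -0.08, -0.32 and 0.40 in wild type, compared with -0.46, 0.80 and 0.19 in Brg1 cKO. On the common reference the mural values of wild type were -0.05, -0.21 and 0.27. The order of arrays was then the same as for endothelial genes, except that Brg1 cKO replicate 1 was the lowest.

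Brg1 cKO replicate 2 had the highest of all 6 values for 28 of the 33 vascular genes, 23 endothelial and all 5 mural ones. Among all genes the share was 24.5%. For Rgs5, Cspg4 and some other members this holds only for the probe set that stands for the gene. In the other probe sets of Rgs5 that array was not the highest. It lay below every wild-type value at 7.59 against 8.23 to 9.52 and at 5.63 against 5.89 to 6.36. In the remaining probe set it lay at 6.82, within the wild-type range of 6.57 to 7.27. In Brg1 cKO replicate 2, 24 of 28 endothelial genes exceeded every wild-type value (85.7%, against 33.4% of all genes). The exceptions were Kdr, Erg, Fli1 and Lyve1, which lay below every wild-type value there. The count was 6 in replicate 1 (21.4%, against 37.6% of all genes) and 12 in replicate 3 (42.9%, against 26%). Replicate 1 was the lowest Brg1 cKO array for 25 of the 33 genes (75.8%, against 28.5% of all genes), and wild-type replicate 3 was the highest wild-type array for 24 (72.7%, against 34.9%).

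Subtracting the mural from the endothelial shift left -0.06, 0.01 and 0.21 for the wild-type arrays and 0.47, 0.12 and 0.21 for the Brg1 cKO arrays, again in the order of replicates. On the common reference the wild-type arrays had -0.04, 0.01 and 0.14. Between genotypes the medians differed by 0.48, the mural one being the value of Rgs5 alone, but array by array the groups overlapped. Only Brg1 cKO replicate 1 stood apart, through its low mural values. Leaving out that array reduced the difference of the medians to 0.19, and leaving out wild-type replicate 2 also gave 0.19.

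**Figure D3:**
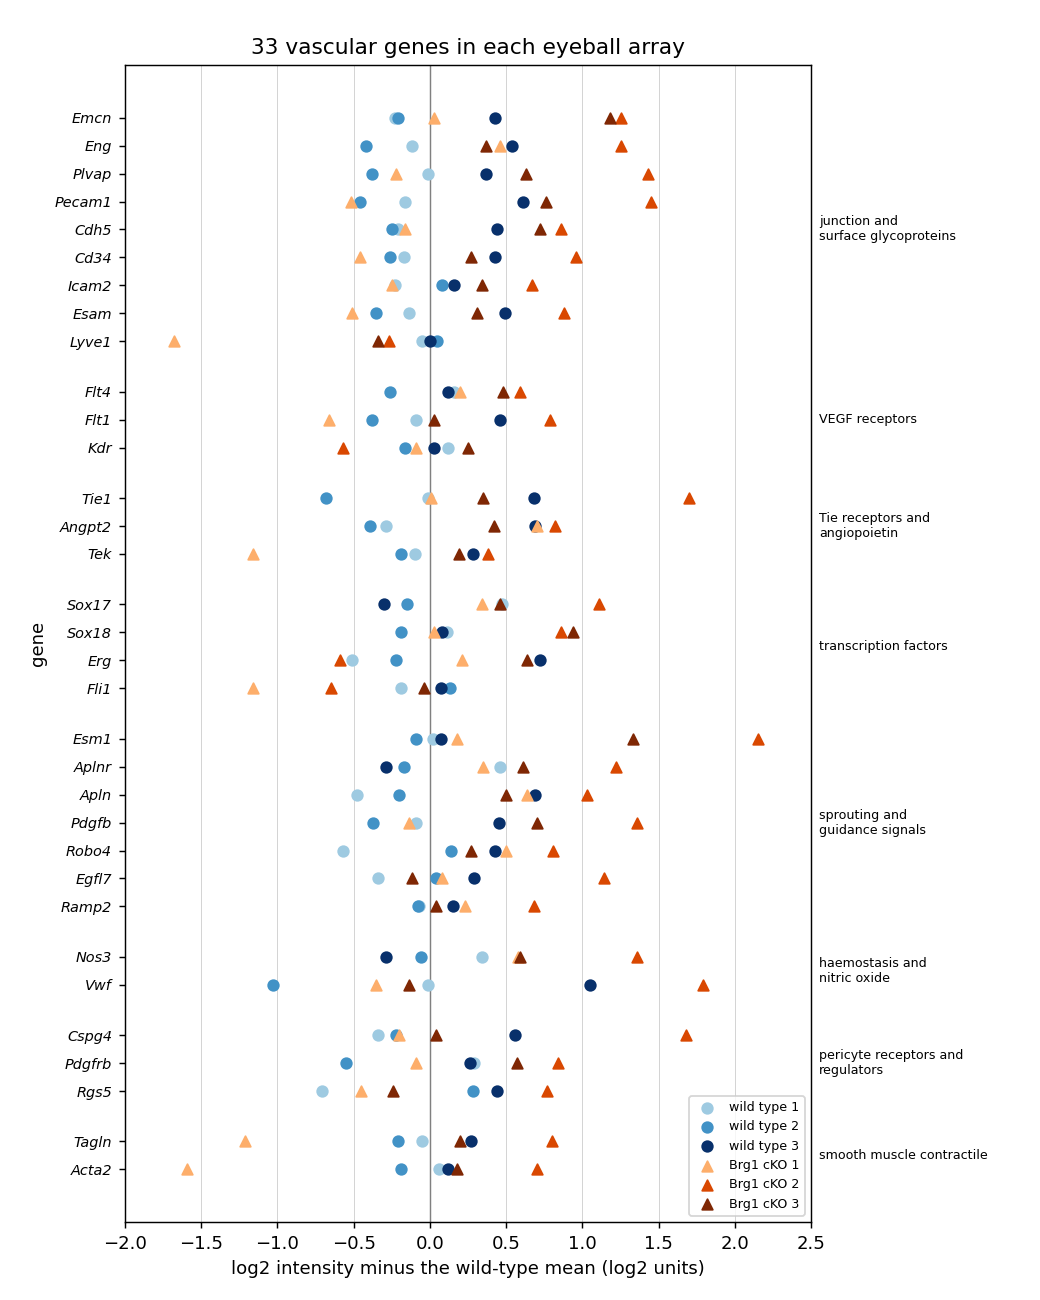
Log2 intensity minus the wild-type mean (horizontal axis, log2 units) of the 33 vascular genes (vertical axis, grouped by role) in each array, with circles for wild-type and triangles for Brg1 cKO replicates. Brg1 cKO replicate 2 is the highest point for 28 of 33 genes, and replicate 1 is the lowest Brg1 cKO point for 25.

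Lists of other vessel genes were drawn up, as the members were, with earlier results of these data known. They are therefore a description and not an independent check, and they did not all behave alike. Of 25 measured other endothelial genes 0 passed and 20 had higher means, with a median of 0.27 and shifts of -0.08, 0.75 and 0.35 in Brg1 cKO, compared with -0.17, -0.21 and 0.43 in wild type. The lowest p among them was that of Slco1a4, a transporter of the blood-brain and blood-retina barrier. It read 5.08, 4.76 and 5.58 in wild type, compared with 6.67, 6.12 and 6.08 in Brg1 cKO, without overlap (difference 1.15, SE 0.27, limma adjusted p = 0.21). In contrast to most members, its highest value was in Brg1 cKO replicate 1. Procr, the endothelial protein C receptor, differed by 1.76 (SE 0.59, adjusted p = 0.448) with 6.86, 7.14 and 8.01 in wild type, compared with 8.0, 10.36 and 8.95 in Brg1 cKO, and Podxl, the sialomucin podocalyxin, by 0.50 without overlap.

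Genes linked to activated endothelium, among them leukocyte adhesion molecules and the enzymes Ptgs2 and Sphk1, had higher means in all 7 cases, against 52.9% of all genes. Of the 7, 0 passed, and Ackr1 and Sphk1 differed by only 0.10 and 0.12, with overlap. Selp, P-selectin of endothelium and platelets, read 4.01, 3.79 and 3.32 in wild type, compared with 4.81, 8.09 and 6.52 in Brg1 cKO (difference 2.77, SE 0.73, limma adjusted p = 0.271). Icam1, the leukocyte adhesion ligand, differed by 1.07 (adjusted p = 0.469), and Ptgs2, the inducible cyclooxygenase 2 that many cells express, by 2.85 (adjusted p = 0.318). Genotypes did not overlap for these 3 genes, or 42.9% of the list, against 8.46% of all genes with higher values and 14.8% in either direction. Shifts of the list were 0.74, 1.08 and 0.53 in Brg1 cKO and 0.05 to 0.08 in wild type. Sele, E-selectin, was below log2 4.84 in all arrays.

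Growth factors, Notch pathway and matrix genes of vessels were closer to 0. Of 14 growth factors and co-receptors 0 passed, and the median was 0.14. Vegfa, the main endothelial growth factor, read 8.65, 9.04 and 9.0 in wild type, compared with 9.59, 9.06 and 9.56 in Brg1 cKO, without overlap (difference 0.51, SE 0.22, limma adjusted p = 0.594). Its co-receptor Nrp1 and the semaphorin receptor Plxnd1 differed by 0.50 and 0.60, also without overlap. Of 17 genes of the Notch, ephrin and BMP list 0 passed, with a median of -0.09. Notch4, an endothelial Notch receptor, differed by 0.61 without overlap (SE 0.19, adjusted p = 0.4), and the Notch ligand Jag1, which lens and ciliary margin also express, by -1.29 (SE 0.34, adjusted p = 0.265). Of 11 vascular basement membrane genes 0 passed, with a median of 0.16. Of 20 other mural genes 0 passed, with a median of -0.12. Among them Higd1b, a pericyte gene, differed by -1.23 and Smtn, a smooth muscle actin-binding protein, by 0.59, both without overlap. Of the 20, 5 were lower and 3 higher by more than 1.5-fold, against 562 lower and 847 higher of all 12393 genes. In Brg1 cKO replicate 1, 13 lay below every wild-type value (65%, against 24.3% of all genes). Shifts of the list were -0.64, 0.47 and -0.21 in Brg1 cKO, compared with -0.21, -0.18 and 0.42 in wild type.

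Markers of other cells that share some of these genes or lie next to vessels also varied between the arrays. Leukocyte markers had higher means in Brg1 cKO for 12 of 12 genes, against 52.9% of all genes, and 0 passed. The genotypes did not overlap for 11 of them (91.7%), all higher, against 8.46% of all genes with higher values and 14.8% in either direction. Their shifts were 0.76, 1.77 and 1.01 in Brg1 cKO, compared with -0.10, -0.18 and 0.42 in wild type, and their summed intensity was 6446 to 13481 against 3432 to 4148, with Itgam below log2 4.84 in all arrays. Pecam1, Cd34, Icam2, Fli1 and Lyve1 are also expressed by blood cells or macrophages. Skeletal muscle markers, of which 0 of 10 passed, had shifts of -0.59, 0.64 and 0.42 in Brg1 cKO, compared with -0.32, -0.47 and 0.74 in wild type, with a summed intensity of 28710 to 64229 against 35552 to 57039. On the common reference the wild-type shifts were -0.21, -0.31 and 0.50, which gave the order of arrays seen for mural genes, with Brg1 cKO replicate 2 the highest. Fibroblast and mesenchyme markers, with 0 of 11 past the threshold, shifted by -0.24, 0.52 and 0.15 against -0.11, -0.26 and 0.40, with a summed intensity of 35992 to 51950 against 38615 to 50871.

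Of the blood cells that vessels contain, 7 erythroid markers with a single gene name (0 past the threshold) had shifts of -0.26, 0.23 and -0.29 in Brg1 cKO, compared with -0.23, -0.23 and 0.32 in wild type. Their summed intensity was 236 to 628 against 279 to 494, and 4 of 7 lay below log2 4.84 in all arrays (Hba-a1, Epb42, Rhag and Klf1). Alas2 read 6.66 to 8.84. Of 10 listed markers only these 7 had a probe set that names them alone, and the globin gene Hbb-b1 was not among them. The sum is therefore not a measure of the amount of blood. Of 6 platelet markers 0 passed, with a summed intensity of 1006 to 2044 against 1233 to 1432, and Gp9 and Treml1 lay below log2 4.84 throughout. Means were higher for 3 of the 6 and lower for 3, with a median of 0.02. Ppbp read 5.67, 4.75 and 5.63 in wild type, compared with 6.33, 8.62 and 7.28 in Brg1 cKO, without overlap (difference 2.06, SE 0.56, limma adjusted p = 0.288). The part of leukocytes, of muscle and mesenchyme dissected with the eyeball, of the reduced lens and of the sex of the pup in the vascular values was not tested.

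**Figure D4:**
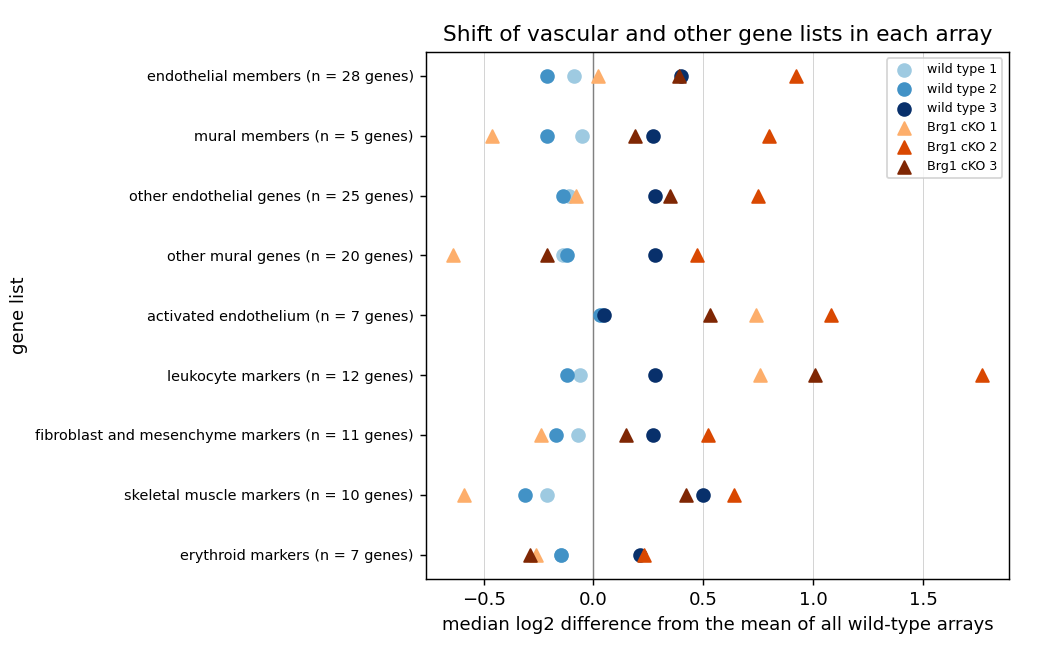
Shift of each array on the common reference (horizontal axis, median log2 difference of the genes of a list from the mean of all 3 wild-type arrays) for vascular lists and lists of other cell types (vertical axis), with circles for wild-type and triangles for Brg1 cKO replicates. Wild-type replicate 3 lies at 0.40 for endothelial and 0.50 for skeletal muscle genes, Brg1 cKO replicate 2 at 0.92 and 0.64, and leukocyte markers lie at 0.76 or above in all Brg1 cKO arrays and at 0.28 or below in wild type.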

How the data were processed

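Individual eyeballs were taken at postnatal day 1, and their total RNA was amplified (NuGEN Ovation), biotin-labelled and hybridised to Affymetrix Mouse Genome arrays. The authors normalized the arrays with RMA (robust multichip average, from the submitters' processing notes, version not stated there) and deposited intensities on a linear scale, which were converted to log2 here. RMA equalises the distribution of probe intensities between arrays and compresses dim signals, so that folds of dim genes are understated. The table held 22690 rows, of which 64 array controls were left out. Of the 22626 probe sets, 20380 name 1 gene in the platform annotation, 691 several and 1555 none. Gene IDs of 20351 were found in RefSeq (GRCm38.p6) and 0 symbols were replaced. The number of arrays limits the precision.

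Genotype was fitted with limma 3.58.1 in R 4.3.3 over all probe sets, with empirical Bayes moderation, a two-sided test and Benjamini-Hochberg adjustment. Exact permutation tests used the 6 values of a gene. List shifts and medians carry no test. The common reference for shifts was added after seeing the data. The fit was tested on simulated data with independent noise of the same SD in both genotypes. The arrays differ from that, with a larger SD in Brg1 cKO and shifts shared by many genes. The simulation therefore checks the code and not the error rates in these data. Values in every array were given for members at an unadjusted p under 0.05, without overlap or lowest by p in their role, and up to 3 genes of each other list were named by p; Emcn, Eng and further members were added for their role. Members and lists were chosen with earlier results of these data known. Alternatives were a replicate block, leaving out each array, quantile normalization, median centring, an offset, a filter on dim probe sets, trend and robust moderation, array weights, template matching and the mean of all probe sets of a gene. Each array was 1 eyeball of a litter not named, and no pair of arrays held the same values.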

Additional observations from a re-analysis of the deposited data

How the results depend on the processing

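No vascular gene passed the threshold under any alternative that gave a count. The replicate numbers were not treated as pairs, since deviations of same-numbered arrays correlated at 0.06, 0.082 and 0.125. With the replicate number as a block, 45 probe sets passed in place of 115, and vascular genes at an unadjusted p under 0.05 numbered 4 in place of 3. Over all probe sets 32 passed with an offset of 16 before log2, 190 with array weights and 820 by template matching. With an array left out the count was 24 to 216 (24, 26 and 36 when wild-type replicate 1, 2 or 3 was omitted, and 216 and 53 when replicate 2 or 3 of Brg1 cKO was), that of vascular genes at an unadjusted p under 0.05 was 1 to 11, and the endothelial minus mural median was 0.19 to 0.59. The 11 came without Brg1 cKO replicate 1, and there were 5 without wild-type replicate 3, 2 without Brg1 cKO replicate 2 or 3 and 1 without wild-type replicate 2. With the same arrays left out the endothelial median stayed between 0.25 and 0.69 and the mural median between -0.35 and 0.50.

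Of 495 gene values under the alternatives, 470 kept their sign and 25 turned it, in 12 of the 33 genes. With an array left out, differences reached from -0.48 to 0.29 for Tek, -0.70 to 0.44 for Acta2, -0.51 to 0.50 for Tagln, -0.33 to 0.08 for Kdr, -0.31 to 0.42 for Flt1, -0.25 to 0.96 for Vwf, -0.10 to 0.60 for Esam, -0.19 to 0.45 for Erg, -0.10 to 0.61 for Cd34, -0.02 to 0.61 for Egfl7, -0.35 to 0.26 for Rgs5 and -0.08 to 0.86 for Cspg4. Without both wild-type replicate 3 and Brg1 cKO replicate 2, added after seeing the data, Kdr was at 0.10, Flt1 at -0.08, Rgs5 at -0.13 and Erg at 0.79. Rgs5 was at -0.02 with median centring, at -0.34 with the mean of its probe sets and at -0.14 with array weights, where Flt1 was at -0.09. The causes were not tested.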
